A study of Mus musculus with 11 samples.

Results

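The 9 replication-dependent histone genes described here are all the rows of the deposited expression table whose symbol starts with Hist1 or Hist2, out of 417 rows in all. They are the H4 genes Hist1h4a, Hist1h4b, Hist1h4c and Hist1h4d, the H2B genes Hist1h2be, Hist1h2bk and Hist1h2bq, the H3 gene Hist2h3b and the linker histone gene Hist1h1a. The RNA came from splenic dendritic cells of C57BL/6J mice 12 to 16 weeks old. The mice carried, on one Umod allele, a change of cysteine to phenylalanine in uromodulin, a protein of the kidney tubule (C105F/+, replicates 2 to 6, 5 libraries), or were their wild type littermates (WT, replicates 1 to 6, 6 libraries). The change had been written into the Umod gene of embryos with Cas9 and a donor DNA, and the labels also give it as C106F; they name no kidney injury, drug, sex or sequencing batch for any of these libraries. Cells other than dendritic cells had been removed with magnetic beads, and each library was made from RNA caught on oligo(dT) beads. The labels do not say that each library came from its own mouse, so every p-value below measures only how far these libraries spread, which may be technical.

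The table bears on how to read every value below. Each of its rows differs at least 2-fold between these same groups, with an unadjusted p below 0.05, so the histone genes in it were kept for a difference. No p-value here is independent evidence of that difference, and adjustment over these rows alone is lenient. Mouse annotation (GENCODE M21) names 64 protein-coding genes Hist1 or Hist2, and those without a row were not analysed here. Of 17 dendritic cell markers, Itgae and Pacsin1 had a row, so the identity of the cells could not be checked from this table.

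Histones are the proteins around which DNA is wound. H2A, H2B, H3 and H4 form the core of the nucleosome, and H1 binds the linker DNA between nucleosomes. Most of the genes that code for them lie in clusters, are transcribed mainly in S phase, when new DNA has to be packed, and are silent or low in cells that do not divide. Their mRNAs are the exception among mRNAs in that they normally end in a short stem-loop, bound by the protein SLBP, and carry no poly(A) tail, although polyadenylated forms of some histone mRNAs are known, mainly from differentiated cells. Selection on oligo(dT) thus favours the polyadenylated forms, and the values below are of what such libraries retained.

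The stem-loop was present in the annotated transcripts of 6 of the 9 genes. It is shown here because it marks where the mRNA without a tail ends. A search with the consensus of the histone stem-loop found it in 67.2% of the 64 Hist1 and Hist2 genes and in 0.243% of 21810 other protein-coding genes. The stretches below are 30 bases of the transcript strand from GENCODE M21 (GRCm38), with the 16 bases of the stem-loop in capitals.
Hist1h4a, chr13:23760791-23760820, minus strand: ccaaaGGCCCTTCTCAGGGCCgcccacatt
Hist1h4b, chr13:23757361-23757390, plus strand: caaaaGGTCCTTTTCAGGACCactcactga
Hist1h4c, chr13:23698080-23698109, minus strand: caaaaGGCCCTTTTCAGGGCCacccacaaa
Hist1h4d, chr13:23581945-23581974, plus strand: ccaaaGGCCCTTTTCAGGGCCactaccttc
Hist1h2be, chr13:23585522-23585551, minus strand: ccaaaGGCTCTTTTCAGAGCCacccaacag
Hist1h2bk, chr13:22036295-22036324, plus strand: ccaaaGGCTCTTTTAAGAGCCactaaacca
The RefSeq models of Hist1h4a, Hist1h4b, Hist1h4c and Hist1h2bk end 5 bases after the stem-loop and that of Hist1h4d ends 4 bases after it. In GENCODE the transcripts of Hist1h4c, Hist1h4d and Hist1h2be run on for 454, 770 and 1861 bases past the stem-loop. No match was found in the GENCODE transcripts of Hist1h2bq, Hist2h3b and Hist1h1a. Some of these models may end before the stem-loop. The shortest of Hist1h2bq has 381 bases, the length of its coding sequence, and that of Hist2h3b has 488, against 502 in RefSeq. The RefSeq models were not searched, so the stem-loop cannot be called absent from these genes. Models that end too early would also count as without it in the 67.2%.

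Promoter stretches are shown because H4 and H2B genes carry different known elements in front of their starts. GGTCCG, the core of the H4 promoter element known as site II, to which the factor HINFP binds in human cells, was found in the RefSeq promoter windows (GRCm38.p6, 250 bases before to 50 after a start, both strands) of Hist1h4b, Hist1h4c and Hist1h4d, and in 8.25% of all 32851 windows. The octamer ATTTGCAT, a binding site of Oct-1 in H2B promoters, was found in windows of Hist1h2be and Hist1h2bk and in 1.74% of all windows. The matches are in capitals, with the bases around them on the gene's strand. In Hist1h4b the match lies just after the RefSeq start, in the others before it.
Hist1h4b, chr13:23756928-23756957, plus strand: tgaagttctcaaccaGGTCCGataagagcc
Hist1h4c, chr13:23698490-23698519, minus strand: tctagttttcaaccaGGTCCGcagaaggcc
Hist1h4d, chr13:23581506-23581535, plus strand: tcaggttttcaaacaGGTCCGcattggtat
Hist1h2be, chr13:23586023-23586052, minus strand: tgaaagtaagacttaATTTGCATaagactg
Hist1h2bk, chr13:22035776-22035805, plus strand: agggcatttcactttATTTGCATacgaagt
The 120 bases before the RefSeq start of Hist1h4c, the gene with the widest fold, hold that match as well.
Hist1h4c, chr13:23698459-23698578, minus strand: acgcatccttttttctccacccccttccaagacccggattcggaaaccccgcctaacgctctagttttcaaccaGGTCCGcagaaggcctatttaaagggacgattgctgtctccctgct
The CCAAT box was found in windows of 8 of the 9 genes and in 37.4% of all windows, TATAAA in windows of 4 genes and in 13.6% of all, and the H1 box AAACACA in none of the 9 and in 7.18% of all.

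Histone transcripts were lower on average in C105F/+ than in WT dendritic cells, and their sum spread more widely among the WT libraries than among the C105F/+ libraries, also without the highest WT library. That spread was not tested. Levels are given as scaled counts, which are read counts divided by each library's size factor, a measure of relative depth recovered from the authors' means. Summed over the 9 genes, the level was 171, 160.3, 188, 136 and 138 scaled counts in C105F/+ 2 to 6. In WT it ran from 98.4 in WT 4 over a median of 301 to 1698 in WT 1. All 5 C105F/+ libraries thus lay within a narrow band, below 5 of the 6 WT libraries and above WT 4. The group means were 159 ± 22.2 in C105F/+ (SD, n = 5) and 529 ± 593 in WT (SD, n = 6), 3.33-fold lower in C105F/+ by the means, 1.88-fold lower by the medians and 1.86-fold lower by the means without WT 1. No test was made of this sum.

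**Figure D1:**
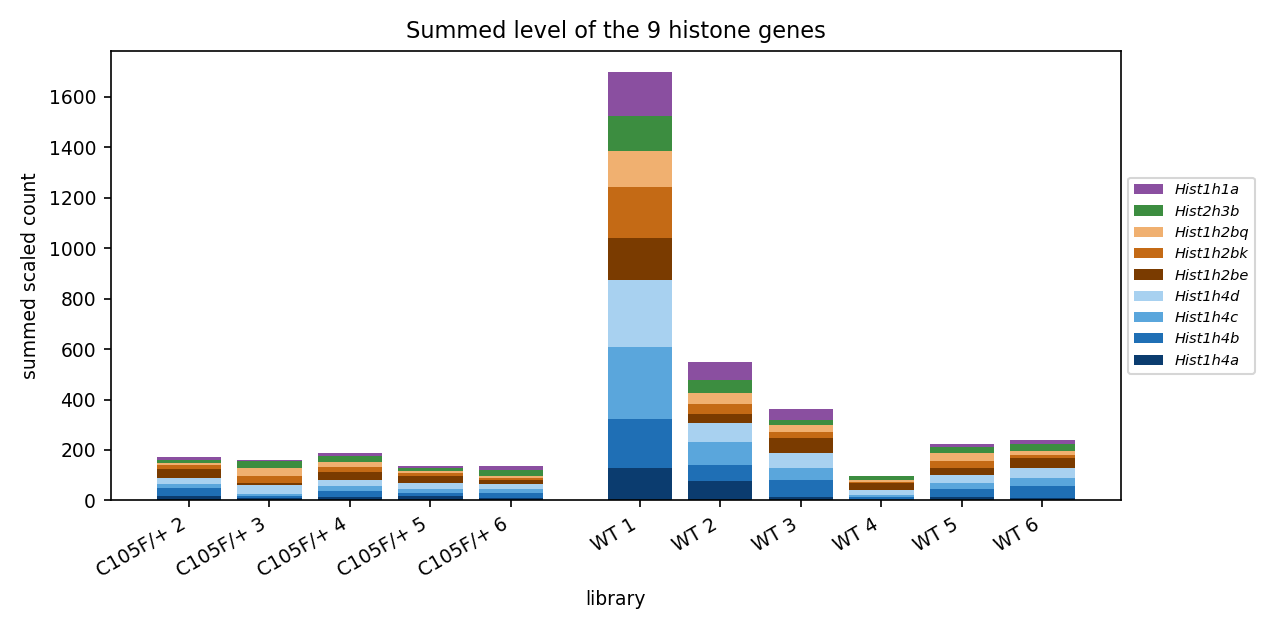
Summed scaled counts of the 9 histone genes (vertical axis) in each library, stacked by gene, with C105F/+ 2 to 6 on the left and WT 1 to 6 on the right. WT 1 stands at 1698, the C105F/+ libraries between 136 and 188, and WT 4 at 98.4.

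WT 1 was the highest of the 11 libraries for all 9 histone genes, and WT 4 was the lowest of the WT libraries for all 9. Among the 155 other rows that were lower in C105F/+, WT 1 was the highest library in 17.4% and WT 4 the lowest WT library in 31 of them. WT 1 also had the smallest size factor (0.615, against 0.827 to 1.98 in C105F/+ and 0.869 to 1.19 in the other WT libraries), and yet the largest number of histone reads, 1044, against 114 to 338 in C105F/+ libraries and 94 to 573 in the other WT libraries. The part of depth in this was not tested. The SD of the summed level was 14.0% of the mean in C105F/+ and 112% in WT, or 58.0% in WT without WT 1. For the single genes the SD was 24.2% to 71.8% of the mean in C105F/+ (median 41.5%) and 92.0% to 141% in WT (median 113%). Without WT 1 it was 32.4% to 129% in WT (median 55.7%) and stayed above that in C105F/+ for 7 of the 9 genes. For Hist1h2be (51.9% in C105F/+ and 32.4% in WT) and Hist1h2bq (71.8% in C105F/+ and 55.7% in WT) it was then the smaller one in WT. The 102 other lower rows that were tested had a median SD of 46.3% of the mean in C105F/+ and 64.0% in WT. Without WT 1 their median in WT was 67.8%, and the SD stayed above that in C105F/+ for 69 of the 102.

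**Figure D2:**
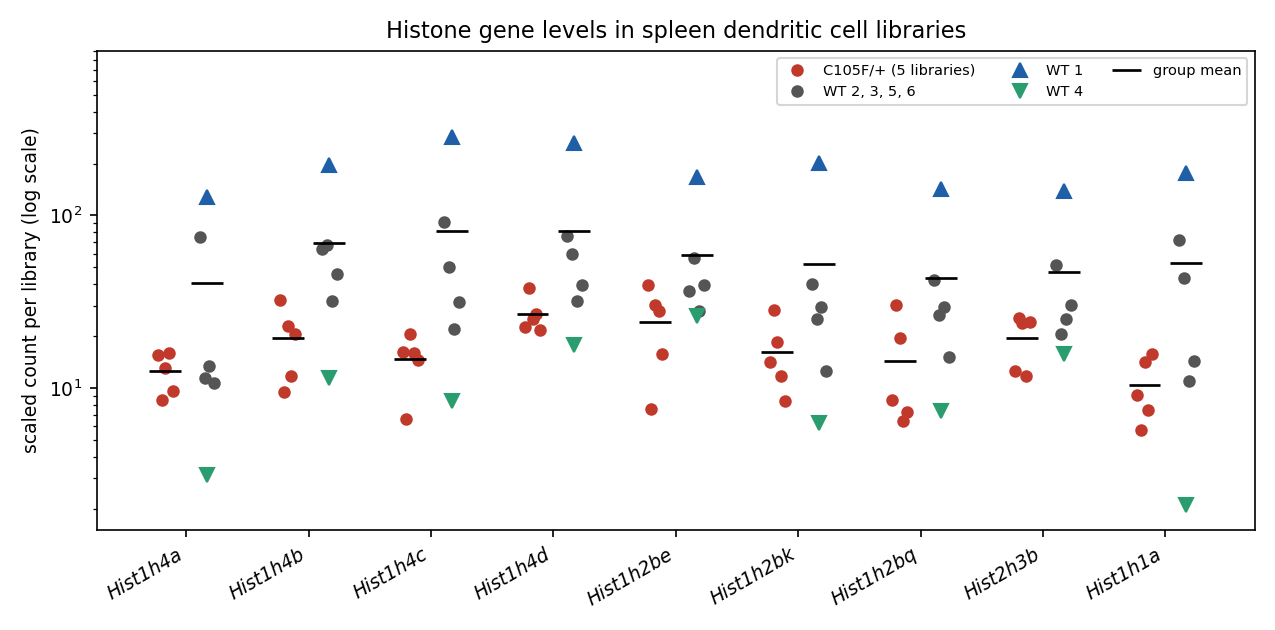
Scaled counts (vertical axis, log scale) of each histone gene in each library, with C105F/+ left and WT right for every gene and horizontal lines at the group means. WT 1 (upward triangles) is the highest point of every gene, and WT 4 (downward triangles) is the lowest WT point of every gene, at 2.09 for Hist1h1a.

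The H4 genes code for the same core protein and lie on chromosome 13 (Hist1h4c at 23698084 to 23698458, single exon). Hist1h4c had 16.2, 6.64, 20.7, 16.1 and 14.5 scaled counts in C105F/+ 2 to 6, against 8.38 in WT 4, a median of 41.0 and 286 in WT 1 for WT. All WT libraries except WT 4 lay above every C105F/+ library. The means were 14.8 ± 5.12 in C105F/+ (SD, n = 5) and 81.8 ± 104 in WT (SD, n = 6), a log2 fold change of -2.45 (SE 0.79, edgeR adjusted p = 0.0294; exact permutation p = 0.0671).

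Hist1h4b (chromosome 13, 23756937 to 23757386) had 32.3, 9.48, 22.9, 11.8 and 20.6 scaled counts in C105F/+ 2 to 6. In WT it ran from 11.5 in WT 4 over a median of 55.0 to 195 in WT 1. The WT libraries 1, 2, 3 and 6 were above all C105F/+ libraries, while WT 5, with 32.0, was level with C105F/+ 2. Its log2 fold change was -1.82 (SE 0.66, edgeR adjusted p = 0.0331), and its exact permutation p was 0.0498.

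Hist1h4d (chromosome 13, 23581568 to 23581969) had 22.7, 37.9, 25.05, 26.8 and 21.8 scaled counts in C105F/+ 2 to 6, against 17.8 in WT 4, a median of 49.6 and 264 in WT 1 for WT. The C105F/+ range again lay between WT 4 and most other WT libraries, and the log2 fold change was -1.59 (SE 0.65, edgeR adjusted p = 0.0432; exact permutation p = 0.0952). Hist1h4a (chromosome 13, 23760795 to 23761249) had 15.7, 8.54, 13.1, 16.1 and 9.68 scaled counts in C105F/+ 2 to 6. Its WT values were 3.14 in WT 4, a median of 12.5, 74.9 in WT 2 and 128 in WT 1. Only WT 1 and WT 2 exceeded the C105F/+ libraries, the C105F/+ median of 13.1 was not below the WT median, and the difference did not pass (log2 fold change -1.65, SE 0.82, edgeR adjusted p = 0.065; exact permutation p = 0.429).

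The H2B genes did not pass the test. H2B pairs with H2A in the nucleosome core. Hist1h2be (chromosome 13, 23583670 to 23621124) had 39.4, 7.59, 30.5, 27.8 and 15.7 scaled counts in C105F/+ 2 to 6, against 26.2 in WT 4, a median of 38.0 and 168 in WT 1 for WT. Hist1h2bk (chromosome 13, 22035821 to 22036320) had 14.1, 28.5, 18.5, 11.8 and 8.47 in C105F/+ 2 to 6, against 6.28 in WT 4, a median of 27.4 and 202 in WT 1 for WT. In both genes the groups overlapped broadly, and C105F/+ 2 held the highest C105F/+ value of Hist1h2be while C105F/+ 3 held that of Hist1h2bk. Hist1h2bq (chromosome 13, 21806412 to 21810199) had 8.59, 30.4, 19.6, 6.43 and 7.26 in C105F/+ 2 to 6, against 7.33 in WT 4, a median of 28.0 and 142 in WT 1 for WT. Log2 fold changes were -1.26 (SE 0.62) for Hist1h2be, -1.67 (SE 0.79) for Hist1h2bk and -1.58 (SE 0.74) for Hist1h2bq, with edgeR adjusted p of 0.0637, 0.0584 and 0.0582. Exact permutation p were 0.0823 for Hist1h2be, 0.312 for Hist1h2bk and 0.134 for Hist1h2bq.

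Hist2h3b, which codes for an H3 of the replication-dependent kind and is the only member outside chromosome 13 (chromosome 3, 96268654 to 96269155), had 12.6, 25.6, 24.0, 11.8 and 24.2 scaled counts in C105F/+ 2 to 6. Its WT values were 15.7 in WT 4, a median of 27.9 and 138 in WT 1. C105F/+ 3, 4 and 6 fell among the WT libraries, and the log2 fold change of -1.25 (SE 0.62) had an edgeR adjusted p of 0.0656 and an exact permutation p of 0.117. Hist1h1a, the gene of linker histone H1.1 (chromosome 13, 23763668 to 23764412), had 9.09, 5.69, 14.2, 7.496 and 15.7 scaled counts in C105F/+ 2 to 6. In WT it ran from 2.09 in WT 4 over a median of 29.0 to 176 in WT 1, and WT 1, 2 and 3 were above every C105F/+ library. Its log2 fold change was -2.33 (SE 0.87, edgeR adjusted p = 0.0354), with an exact permutation p of 0.216.

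All 9 deposited folds were lower in C105F/+, as were 39.3% of the 417 rows. By edgeR's quasi-likelihood test Hist1h4b, Hist1h4c, Hist1h4d and Hist1h1a were called lower at an adjusted p under 0.05, 4 of 9 genes, against 21.8% of the 321 rows tested, each of them kept by the authors for its difference. In the authors' deposited table the adjusted p of Hist1h4c was 0.0404 and those of the other 8 genes ran from 0.0761 to 0.246, while 7.8% of the rows with an adjusted p were called lower. By exact permutation 1 of the 9 genes, Hist1h4b, had a p under 0.05, against 22.1% of all rows in that direction, and its p adjusted over the 417 rows was 0.0736.

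The number of calls changed with single libraries, and WT 1 also set the size of the folds. Without WT 1 none of the 9 genes was called by edgeR (adjusted p from 0.0525 for Hist1h4c to 0.399 for Hist1h2bk, and 1 gene at an unadjusted p under 0.05), and the log2 fold changes ran from -1.46 to -0.48. Without WT 4 all 9 were called (adjusted p from 0.00923 to 0.0443). Of all rows tested, 41 of 315 were called lower without WT 1 and 58 of 314 without WT 4. None was called when C105F/+ 2, 5 or 6 was left out, in fits where 11, 13 and 17 rows of the whole table passed; at an unadjusted p under 0.05 there were 4, 4 and 3 histone genes. The folds stayed about as large there, with a median log2 fold change over the 9 genes of -1.62, -1.59 and -1.52, against -1.65 with all libraries, whereas it was -0.74 without WT 1. By exact permutation without WT 4, Hist1h4b, Hist1h4c, Hist1h4d and Hist1h1a had p under 0.05 (lowest 0.0079 for Hist1h4c), and none had without WT 1. All 9 genes were lower in C105F/+ whichever of the 11 libraries was left out. The rows were kept for an at least 2-fold difference between these groups, so the kept sign is not independent support.

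**Figure D3:**
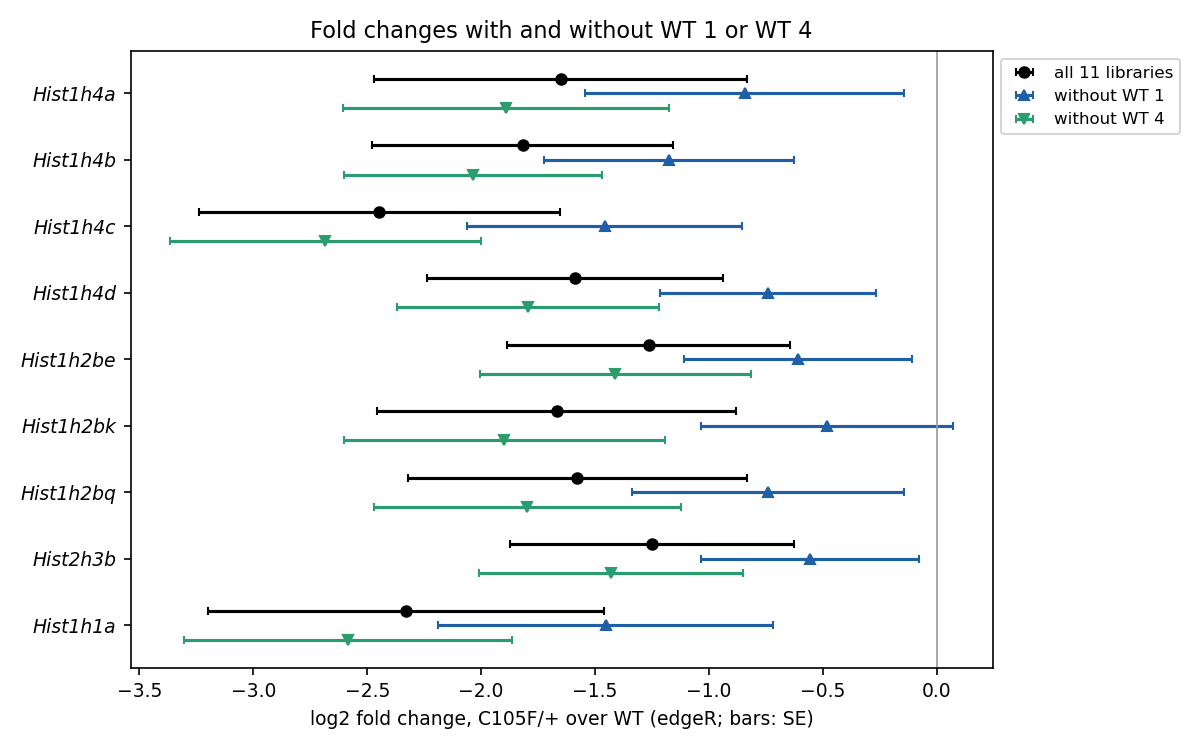
Log2 fold changes of C105F/+ over WT (horizontal axis) with their SE, for each histone gene with all libraries, without WT 1 and without WT 4. Leaving out WT 1 moves Hist1h4c to -1.46 and Hist1h2bk to -0.48, and leaving out WT 4 moves each gene away from 0.

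Which histone classes the reads came from differed between the groups by less than the spread between libraries. Shares of the summed histone counts do not depend on the scaling between libraries. The H4 genes together held 46.7% ± 5.42 of the histone counts in C105F/+ (SD, n = 5) and 49.8% ± 5.52 in WT (SD, n = 6), the H2B genes 34.2% ± 6.92 and 31.5% ± 7.07, Hist2h3b 12.5% ± 4.43 and 10.6% ± 3.61, and Hist1h1a 6.66% ± 3.00 and 8.09% ± 4.38, each with C105F/+ first. None of these differences exceeded the SD of either group. Among single genes the share of Hist1h4c was 9.39% ± 3.05 in C105F/+ and 13.2% ± 3.46 in WT, a difference of -3.79 percentage points that exceeded the SD of either group but was not tested. WT 1, 2, 3 and 6 were above every C105F/+ library, and WT 4 and 5 were not. The difference was -2.48 points without C105F/+ 3, whose share was the lowest, and -3.05 points without WT 1, both within the WT SD. The share of Hist1h4d was 17.2% ± 4.48 in C105F/+ and 15.8% ± 1.57 in WT.

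Single libraries differed in composition. In C105F/+ 3 the shares of Hist1h2bq and Hist1h2bk were 18.9% (95% exact Clopper-Pearson interval 13.3% to 25.7%) and 17.8% (12.3% to 24.4%), the highest of the 11 libraries, while Hist1h4c held 4.14% (1.68% to 8.35%) and Hist1h2be 4.73% (2.07% to 9.11%), the lowest. The leading gene was Hist1h2be in C105F/+ 2, 4 and 5, Hist1h4d in C105F/+ 3 and Hist2h3b in C105F/+ 6. In WT it was Hist1h4c in WT 1 and 2, Hist1h4b in WT 3 and 6, Hist1h4b level with Hist1h4d in WT 5, and Hist1h2be in WT 4, where it held 26.6% (18.0% to 36.7%). In WT 1, whose total was the highest, Hist1h4c held 16.9% (14.6% to 19.3%) and Hist1h1a 10.3% (8.56% to 12.4%). The intervals cover counting error only, and each library's share rests on 94 to 1044 histone reads.

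**Figure D4:**
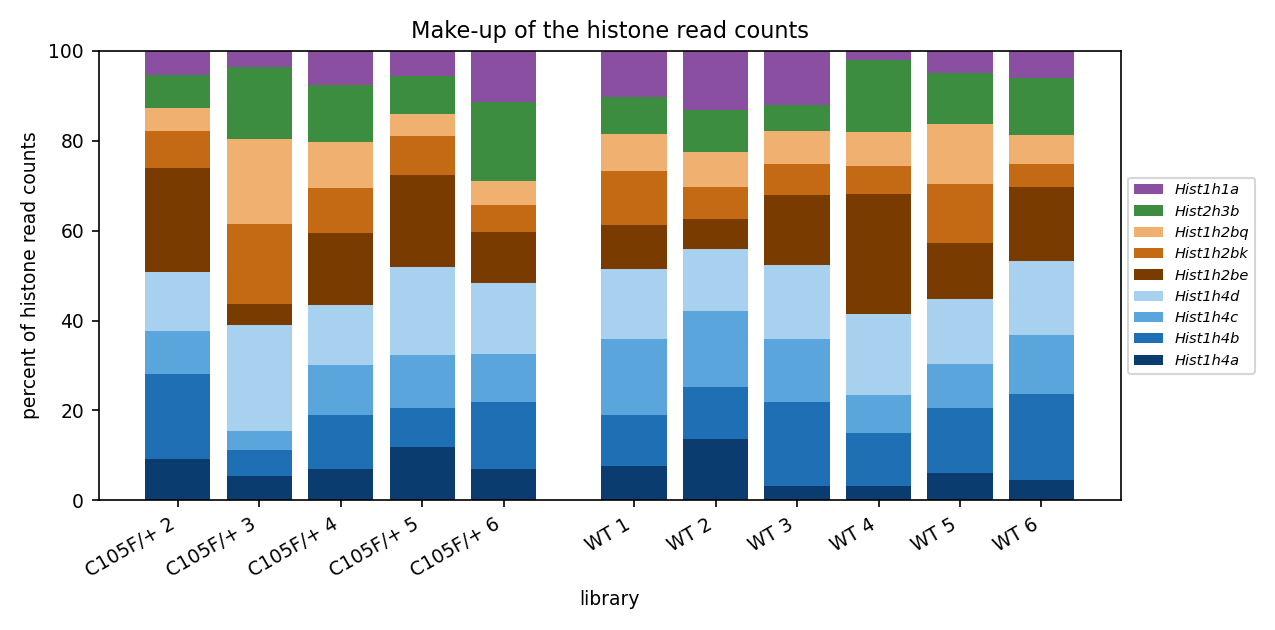
Percent of the histone read counts held by each gene (vertical axis, stacked to 100) in each library, C105F/+ left and WT right. The blue H4 part fills 39.1% to 52.0% in C105F/+ and 41.5% to 55.8% in WT, and C105F/+ 3 has the widest bands of Hist1h2bk and Hist1h2bq.

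Per length, in the authors' FPKM, 3 of the 4 H4 genes led. Hist1h4d had the highest mean FPKM level in both groups, 1.42 ± 0.25 in C105F/+ (SD, n = 5) and 3.67 ± 3.78 in WT (SD, n = 6). Hist1h4b (0.87 ± 0.44 in C105F/+ and 2.59 ± 2.18 in WT) and Hist1h4c (0.77 ± 0.30 in C105F/+ and 3.58 ± 4.30 in WT) followed, and Hist1h1a was lowest in both (0.28 ± 0.11 in C105F/+ and 1.16 ± 1.37 in WT). The fourth H4 gene, Hist1h4a (0.54 ± 0.18 in C105F/+ and 1.45 ± 1.74 in WT), ranked 8th of 9 in C105F/+ and 7th in WT, below Hist2h3b, Hist1h2bk and Hist1h2bq in both. In C105F/+ Hist1h4d stood above Hist1h4b, and Hist1h4a above Hist1h1a, by more than the SD of either gene. All other neighbours in C105F/+, and all neighbours in WT, differed by less than their SD. The median FPKM of Hist1h2be was 0.387 in C105F/+ and 0.381 in WT, while its median scaled count was 27.8 in C105F/+ and 38.0 in WT. The transcript length that its FPKM implies ran from 440 to 2471 bases between libraries, so its FPKM and its counts are not on 1 common scale.

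The sequences of the family limit how well its genes can be told apart. The coding sequences of the H4 genes were 92.6% to 96.8% identical over 312 bases, and those of the H2B genes 97.4% to 98.4% over 381 bases. Of all 50-base windows of the annotated transcripts, the share that occurs identically in another gene was 100% for Hist2h3b (with Hist2h3c1 among the others), 97.3% for Hist1h2bq (all of them in Hist1h2br), 75.9% for Hist1h4b, 74.2% for Hist1h2bk, 40.4% for Hist1h4a, 19.6% for Hist1h4c, 16.3% for Hist1h2be, 10.2% for Hist1h4d and 0% for Hist1h1a. The sources used here do not say how reads that fit several genes were assigned. Thus the levels of Hist2h3b and Hist1h2bq in particular are uncertain, while no window of Hist1h1a was shared. For Hist1h4c and Hist1h4d the GENCODE transcripts, with their long ends, are longer than the RefSeq models, and the shares were not computed over the RefSeq models. The coding transcripts of Hist1h2be run on for 1861 bases past the stem-loop, and 726 of its 4443 windows were shared. Its share over the coding sequence alone was not computed.

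The genes varied together across the WT libraries. After each group's mean log2 level was subtracted, all 36 gene pairs had a correlation above 0 over the 11 libraries (median r = 0.80), and 33 of 36 without WT 1 (median r = 0.60). Within the 6 WT libraries all 36 pairs were above 0 (median 0.92), whereas within the 5 C105F/+ libraries 17 of 36 were (median -0.25). These are descriptions over few libraries, whose genes share 1 size factor per library, and the difference between the groups was not tested. The highest r over the 11 libraries, 0.965, was that of Hist1h2bk and Hist1h2bq, with 74.2% and 97.3% of their windows shared with other genes. The part of shared sequence in these correlations was not tested. Pairs of other rows were not counted, and all 9 genes were kept for a difference between the groups.

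Among the other rows tested by edgeR, those whose deviations followed the histone sum most closely over the 11 libraries were Krt10 (r = 0.85, rho = 0.76), Snord15b (r = 0.84, rho = 0.25), Igip (r = 0.81, rho = 0.87), Myeov2 (r = 0.78, rho = 0.65) and Mospd4 (r = 0.76, rho = 0.77). They were picked for this likeness among all rows. Without WT 1 and WT 2, the libraries farthest from the median histone sum, r was 0.63, 0.78, 0.45, 0.75 and 0.66 in the same order. Snord15b, a small nucleolar RNA, had 4.55, 11.4, 7.62, 6.43 and 8.47 scaled counts in C105F/+ 2 to 6, against 2.09 in WT 4 and 152.9 in WT 1. Small nucleolar RNAs carry no poly(A) tail either, and of the 4 rows of this kind in the table, chosen after their values were seen, 3 were highest in WT 1. Their summed level was 8.57 to 16.9 scaled counts in C105F/+, 245.6 in WT 1 and 23.0 to 35.7 in the other WT libraries. The part of the recovery of RNA without a tail in the histone values was not tested.

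Genes that accompany histone expression in dividing cells gave no values. None of 32 genes of S phase and proliferation (Mki67, Top2a, Pcna and the Mcm genes among them), none of 13 genes of histone mRNA processing (among them Slbp and Npat) and none of 26 other histone genes had a row, so that none of them was analysed here. Rows that differed less than 2-fold, or whose unadjusted p by the authors was not below 0.05, were left out. Which condition a gene without a row failed is not known.

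Some markers of other cells had rows as well, each kept for a difference between the groups. Listed markers without a row are not part of the sums below. Of 10 plasma cell markers 5 had a row, with a summed level of 14480 to 201986 scaled counts in C105F/+ and 16739 to 25970 in WT, and of 8 T cell markers 3, with 200.1 to 1266 in C105F/+ and 152 to 211 in WT. B cell markers (5 of 8) summed to 1234 to 11498 in C105F/+ and 1202 to 4687 in WT, and neutrophil markers (5 of 8) to 1152 to 28216 in C105F/+ and 1014 to 7603 in WT. Markers of proliferating erythroid cells (Alas2 and Sptb of 8) summed to 377.9 to 4085 in C105F/+ and 184 to 1283 in WT. Among the WT libraries WT 1 was the highest and WT 4 the lowest, as for the histone genes. Between the groups both rows went the other way from the histone genes. Alas2 and Sptb alone do not show whether such cells were dividing. The dendritic cell markers Itgae and Pacsin1 summed to 1454 to 4885 in C105F/+ and 168 to 1471 in WT, with WT 4 the lowest of all libraries and the other WT libraries at 1079 or more. All of these marker rows were higher in C105F/+ in the deposited folds. C105F/+ 3, with 14480 scaled counts of plasma cell markers, had a histone sum of 160.3, close to that of the other C105F/+ libraries. The part of these cells in the histone values was not tested, and in such bulk RNA fewer dividing cells and less histone RNA per cell cannot be told apart.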

How the data were processed

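The submitters' processing notes name DESeq2, mm10, StringTie 2.1.3b, HISAT2 2.1.0, FastQC 0.11.7, Bowtie2 2.3.4.1 and Trimmomatic 0.38, without roles or order. Per the file headers, the authors deposited for each library raw read counts, FPKM and log2 normalized values (transformation not stated), and for the comparison a signed fold (used as a score), a mean signal over all libraries, a p-value and a Benjamini-Hochberg adjusted p-value. All rows differ at least 2-fold with an unadjusted p below 0.05. Counts over these rows ran from 195414 to 1198500 per library, which is not a depth. Size factors were recovered from the deposited means by least squares (largest relative error 1.93e-14). With these factors, edgeR 4.0.16 (R 4.3.3) tested the counts by quasi-likelihood, after its own filter for low counts, and p-values were Benjamini-Hochberg adjusted over 321 rows. The SE is the log2 fold change over the root of the F statistic. Scripts were tested on simulated data. Single genes were also tested by an exact two-sided permutation test of log2(scaled count + 1) over 462 assignments, smallest p 0.0022. Gene positions and promoters come from RefSeq (GRCm38.p6, the build of mm10), to which 9 of 9 gene IDs matched, and transcripts from GENCODE M21. All 9 genes are named, with the 5 tested rows most like their sum by Pearson's r (predicted genes left out). The members and lists were chosen with earlier results of these data known. Alternatives were other scalings, DESeq2 1.42.0, no filter, a replicate block, other pseudocounts or units, and each library left out.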

Additional observations from a re-analysis of the deposited data

Results flagged for a closer look

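WT 1 lay far above the other WT libraries for 7 of the 9 histone genes and for their sum, by the gap to the nearest library relative to the range of the group. It had 195 scaled counts of Hist1h4b against 11.5 to 67.9 in the other WT libraries, 286 of Hist1h4c against 8.38 to 92.2, 264 of Hist1h4d against 17.8 to 75.9, 168 of Hist1h2be against 26.2 to 56.4, 202 of Hist1h2bk against 6.28 to 40.3, 142 of Hist1h2bq against 7.33 to 42.3 and 138 of Hist2h3b against 15.7 to 51.9. The sum was 1698 in WT 1 against 98.4 to 550.3 in the other WT libraries. The share of Hist1h2bq in the histone counts was 13.3% in WT 5 against 6.37% to 8.33% in the other WT libraries. Of 38 groups of values tested, 9 were flagged. The rule's rate of about 1 in 20 holds for normally distributed values. These were unlogged counts and shares of genes kept for a difference, so the 9 cannot be set against that rate. The genes are also not independent of each other.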

How the results depend on the processing

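All 9 genes kept a negative log2 fold change by edgeR and DESeq2 under each alternative run. As rows kept for a difference between the groups, they give no independent support by this. With all libraries 4 genes were called, beside 70 of all 321 rows tested called lower. With edgeR's TMM over the rows 9 were called, with DESeq2 8, with median-of-ratios scaling 6 and with FPKM scaling 3. In the same order, the rows called lower were 106 of 323, 146 of 417, 91 of 320 and 45 of 322. These scalings moved the median log2 fold change of all rows by -0.96 (TMM), -0.76 (median of ratios) and 0.17 (FPKM). The TMM and median-of-ratios factors were estimated from these selected rows alone, of which 253 were higher and 164 lower in C105F/+. With the replicate block, on libraries 2 to 6, 0 genes were called (0 rows of the table, 166 at an unadjusted p under 0.05), and 0 in the same libraries unblocked, a fit added after seeing the data; these lack WT 1. Same-numbered libraries deviated together in 1 of 5 numbers (correlation over 0.1). This check, over rows kept for a group difference, cannot decide whether the numbers pair the libraries. Leaving out 1 library at a time, between 0 and 9 histone genes, and 3 to 90 rows in all, were called lower by edgeR. Between 0 and 4 histone genes had an exact permutation p under 0.05, against 1 with all libraries. That count was 0 on the deposited log2 values and on log2(FPKM + 0.1), and 1 with a pseudocount of 0.5. The cause of these shifts was not tested. The log2 ratio of the summed level was -1.74; leaving out WT 1 brought it to -0.89, and leaving out any other library gave -1.95 to -1.69. Histone reads numbered 94 to 1044 per library, which limits what single genes can show.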

Other observations

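Hist1h2be differed from the other histone genes in how its deposited read count and FPKM related. The count divided by the FPKM, scaled within each library on the 7 histone genes with a single transcript, gives the transcript length the authors' values imply. For Hist1h4c it was 373 to 406 bases in C105F/+ and 366 to 381 bases in WT, where RefSeq gives 375. For Hist1h2be it was 2471, 2380, 1543, 443 and 440 bases in C105F/+ 2 to 6, and 532 in WT 1, 1896 in WT 2, 636 in WT 3, 1873 in WT 4, 1354 in WT 5 and 1924 in WT 6. The library with the most histone reads thus had one of the shorter implied lengths, as did WT 3, C105F/+ 5 and C105F/+ 6. The authors' row joins 3 RefSeq transcripts of this gene, and the sources used here do not say which of them took the reads.

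The 3 genes Hist1h4b, Hist1h4a and Hist1h1a lie within 7.48 kb of chromosome 13 (23756937 to 23764412). Over the 11 libraries, the r of their deviations from the group means was 0.81 for Hist1h4a and Hist1h4b. It was 0.88 for Hist1h4a and Hist1h1a and 0.92 for Hist1h4b and Hist1h1a. Such values were not particular to these neighbours. All 36 pairs of histone genes were above 0, with a median r of 0.80. Hist1h4c, which lies outside this stretch, had r of 0.93 with Hist1h4a, 0.93 with Hist1h4b and 0.96 with Hist1h1a. All of these are descriptions. WT 2 and WT 3 differed in Hist1h4a and Hist1h1a and were close in Hist1h4b. Hist1h4a had 74.9 scaled counts in WT 2 and 11.5 in WT 3, Hist1h1a had 72.0 and 43.7, and Hist1h4b had 64.3 and 67.9.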
